A study of Mus musculus with 6 samples.

Results

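Interleukin 6 family ligands and their receptors were followed through 6 mouse RNA libraries measured on Affymetrix Mouse Gene 2.0 ST arrays. The family was named by 10 genes, the ligands Il6, Il11, Lif, Ctf1 and Clcf1 and the receptors Il6ra, Il11ra1, Il6st, Lifr and Osmr. A gene was measured where the platform annotation gives a probe set its symbol alone, which held for 9 of the 10 genes among 22180 genes in all, each of the 9 with 1 probe set. Il11ra1 was not analysed here. The genes were chosen by family membership after log2 values of all 6 libraries had been seen, so every count of them is a description.

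The libraries were 3 cultures of DBA/2J mouse induced pluripotent stem (iPS) cells at day 7 of cardiac differentiation, 2 libraries of heart-derived cells and 1 of undifferentiated iPS cells. The cultures spent 5 days in suspension as embryoid bodies, which are aggregates that begin to differentiate, and were then plated with 1% DMSO and 100 ng/ml NRG-1, with NRG-1 alone or with DMSO alone. NRG-1 (neuregulin 1) is a growth factor for ERBB receptors, and DMSO is a solvent that can also trigger differentiation. The other libraries were labelled adult cardiomyocytes, neonatal cardiomyocytes and iPS cells, all of strain DBA/2J and all labelled female. iPS cells were kept on feeder cells in serum medium with LIF, the protein of 1 of these genes, and the sources used here do not say whether LIF stayed in the medium after plating. No differentiated culture without both agents was among the 6 samples, so a culture set against iPS cells differs in differentiation and agent together. Values are log2 expression from RMA, and each group is 1 library, so no difference below could be tested or set against replicates.

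Interleukin 6 family cytokines signal through gp130, the shared receptor chain encoded by Il6st. IL-6 and IL-11 first bind their own alpha receptors, Il6ra and Il11ra1, whereas LIF and cardiotrophin 1 (Ctf1) use gp130 paired with the LIF receptor (Lifr), and oncostatin M uses gp130 paired with Osmr. The receptors activate JAK kinases and the transcription factor STAT3, and SOCS proteins shut the signal down. In the heart the family is known for cardiomyocyte growth and survival and for the response of fibroblasts to injury, and in mouse pluripotent cells LIF acting on STAT3 helps to keep the undifferentiated state.

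The upstream sequences of 4 genes are shown because the results turn on them: Il6 and Osmr followed the same order of libraries, Lifr was highest in the cultures and lowest in the adult library, and Lif is a ligand of Lifr. Each is the 250 bases before the annotated start, 5′ to 3′ on the strand of the gene, from RefSeq (GRCm38.p6), and 9 of the 10 symbols, all but Clcf1, had an entry. Capitals mark matches on either strand to an NF-kappaB motif (GGG and TTTCC with any 2 bases between), TGANTCA (AP-1), TTCNNNGAA (STAT) or TTGCNNAA (C/EBP).
Il6, chr5:30012864-30013113, plus strand: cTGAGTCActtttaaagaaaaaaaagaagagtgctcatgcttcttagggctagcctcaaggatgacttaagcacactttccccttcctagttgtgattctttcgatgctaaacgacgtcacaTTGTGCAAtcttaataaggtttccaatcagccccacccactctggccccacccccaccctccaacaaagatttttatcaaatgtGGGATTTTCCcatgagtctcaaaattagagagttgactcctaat
Lif, chr11:4257318-4257567, plus strand: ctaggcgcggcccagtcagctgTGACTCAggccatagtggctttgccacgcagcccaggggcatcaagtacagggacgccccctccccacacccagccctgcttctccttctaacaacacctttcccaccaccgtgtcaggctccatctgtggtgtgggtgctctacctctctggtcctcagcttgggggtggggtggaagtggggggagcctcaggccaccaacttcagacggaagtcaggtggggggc
Osmr, chr15:6874314-6874563, minus strand: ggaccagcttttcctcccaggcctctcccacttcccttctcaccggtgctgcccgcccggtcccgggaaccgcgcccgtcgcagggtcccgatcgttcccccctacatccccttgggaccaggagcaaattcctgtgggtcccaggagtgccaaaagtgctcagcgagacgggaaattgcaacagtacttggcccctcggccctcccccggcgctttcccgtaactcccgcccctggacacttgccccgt
Lifr, chr15:7129322-7129571, plus strand: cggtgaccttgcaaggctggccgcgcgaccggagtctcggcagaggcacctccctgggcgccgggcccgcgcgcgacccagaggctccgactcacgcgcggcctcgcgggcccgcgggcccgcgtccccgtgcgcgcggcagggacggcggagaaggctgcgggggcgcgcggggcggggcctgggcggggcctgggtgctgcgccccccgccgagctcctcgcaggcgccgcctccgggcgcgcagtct

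The Il6 window held 1 match each to the NF-kappaB letters (GGGATTTTCC, first base 44 bases before the start), the C/EBP letters (TTGTGCAA in the gene's direction, 128 bases before) and the AP-1 letters (TGAGTCA, 249 bases before), which do not overlap. Of 32851 RefSeq promoter windows of this length, 1.41% held the NF-kappaB letters, 9.56% the C/EBP letters, 6.75% the AP-1 letters and 7.02% the STAT letters. The Lif window held 1 AP-1 match (TGACTCA, 228 bases before), and the second of the Il11 windows held another (TGAGTCA, 98 bases before). No other member window held any of the 4 motifs, and no member window held the STAT letters. Base composition varied among these windows: Il6 had 42.8% G and C with 3 CpG sites, Lif 63.6% with 6, Osmr 66% with 18, the first Lifr window 82.4% with 43 and a second Lifr window 50.8% with 3, against medians of 52.4% and 6 over all windows. Osmr and Lifr are neighbours on chromosome 15, with 0 protein-coding genes between them in the RefSeq table, and their annotated starts lie 255 kb apart on opposite strands.

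The libraries were checked against their labels first, because the heart-derived ones carry the largest differences in the family. Adult and neonatal libraries held the fibroblast markers at mean log2 values of 10.6 and 10.2, against 6.40 in iPS cells, and all 11 of 11 were at least 2-fold higher in each. Of the 12 cardiomyocyte markers, 1 was at least 2-fold higher than in iPS cells in the adult library (Tnnt2) and 3 in the neonatal library (Tnnt2, Actc1 and Nppa), with list means of 5.37, 6.71 and 5.57 in adult, neonatal and iPS libraries. The myosin heavy chain Myh6 stood at 5.05, 6.47 and 5.82 in the same 3 libraries. Apart from Tnnt2, the cardiomyocyte markers were thus not 2-fold above iPS cells in the library labelled adult cardiomyocytes, and both heart-derived libraries are called by their labels only. The Y-linked genes Eif2s3y, Kdm5d and Uty stood between 7.02 and 8.15 in the adult library and between 6.17 and 7.14 in the neonatal one, against 3.08 to 4.06 in iPS cells, which goes against the labels as female. Xist, the RNA of the inactive X chromosome, stood at 3.39 in the adult library, 8.78 in the neonatal library and 5.97 in iPS cells, so the neonatal library held both Xist and Y-linked RNA. In these bulk samples, fewer cells of a type and less RNA per cell cannot be told apart.

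**Figure D1:**
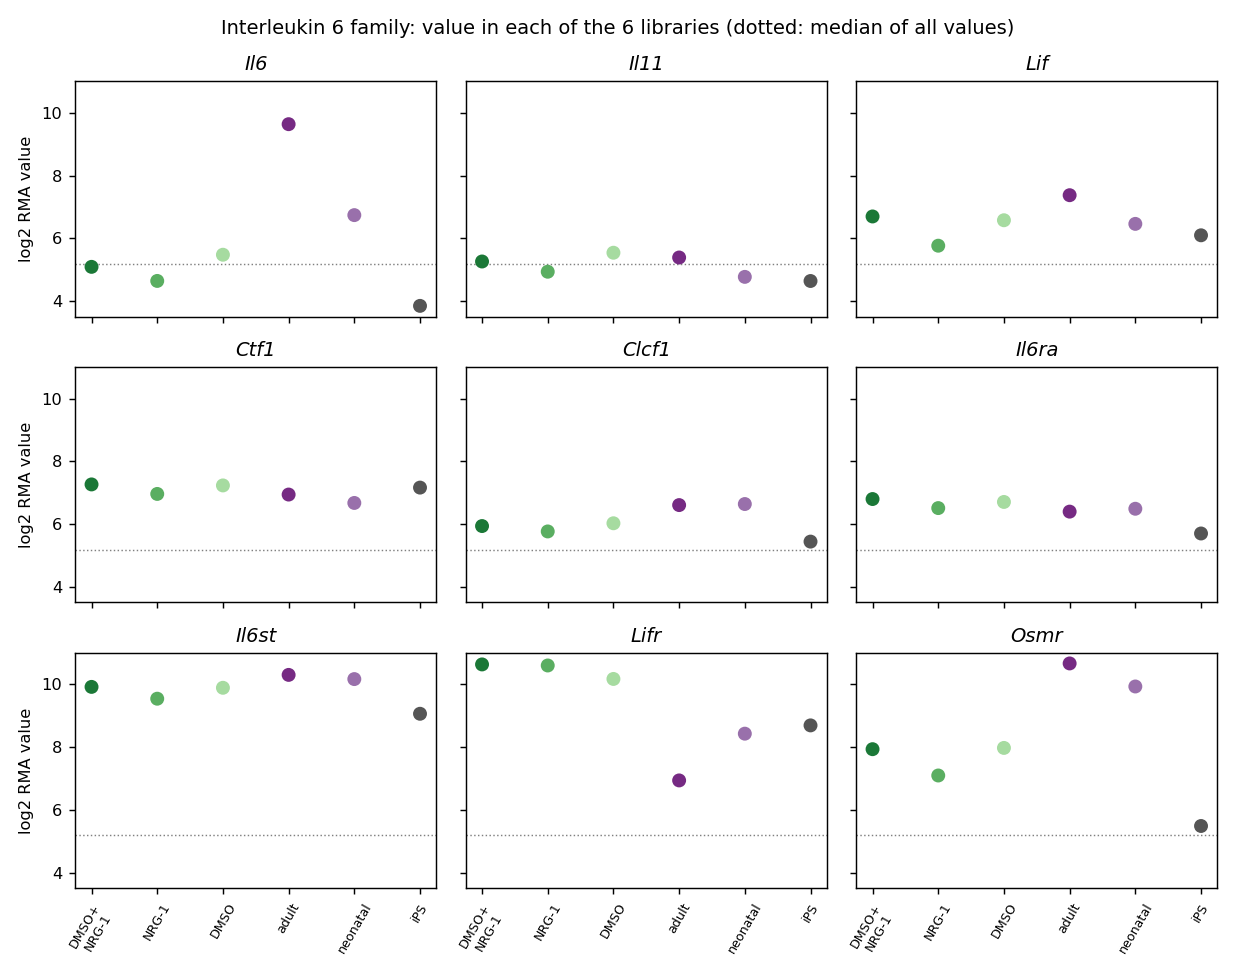
Log2 RMA value (y axis) of the 9 measured genes in each of the 6 libraries (x axis), 1 point per library, with the median of all values in the table (5.20) as a dotted line. Il6 and Osmr were highest in the adult library and lowest in iPS cells, Lifr was highest in the 3 cultures and lowest in the adult library, and Ctf1 spanned only 0.59.

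Il6, the cytokine that gives the family its name, spanned 5.78 on the log2 scale, the widest span of the 9 genes. Its value was 5.10 with DMSO and NRG-1, 4.65 with NRG-1, 5.48 with DMSO, 9.63 in the adult library, 6.74 in the neonatal library and 3.86 in iPS cells. The heart-derived libraries stood above all cultures, and all cultures stood above iPS cells. Set against iPS cells, Il6 was 54.9-fold higher in the adult library (a log2 difference of 5.78), the difference ranking 10 from the top among 13760 genes that passed the filter. The filter required the higher of the 2 values to reach the median of all values in the table, 5.20, and a gene under it in both is called dim. In the neonatal library the difference was 2.89, or 7.39-fold, at rank 259 of 13582. With DMSO it was 1.63, while with both agents (1.24) and with NRG-1 (0.79) Il6 was dim in both libraries of the comparison and was not counted.

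Lif, which keeps mouse pluripotent cells undifferentiated in culture, spanned 1.61. Its value was 6.70 with DMSO and NRG-1, 5.77 with NRG-1, 6.58 with DMSO, 7.38 in the adult library, 6.46 in the neonatal library and 6.10 in iPS cells. Only the adult library was at least 2-fold from iPS cells (1.28), and the culture with NRG-1 alone was the one library below them (-0.33).

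Clcf1, a ligand that acts through the CNTF receptor together with gp130 and Lifr, spanned 1.20. Its values were 5.94 with both agents, 5.77 with NRG-1, 6.03 with DMSO, 6.61 in the adult library, 6.65 in the neonatal library and 5.45 in iPS cells. The heart-derived libraries lay within 0.03 of each other and were 2.24-fold (adult) and 2.29-fold (neonatal) above iPS cells, and no culture reached 2-fold.

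Il11, the ligand of Il11ra1, spanned 0.90, and its values lay close to the median of the table throughout. They were 5.27 with both agents, 4.94 with NRG-1, 5.55 with DMSO, 5.39 in the adult library, 4.78 in the neonatal library and 4.65 in iPS cells. No library was 2-fold from iPS cells, the nearest being the culture with DMSO (0.90).

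Ctf1, or cardiotrophin 1, known for making cardiomyocytes grow, varied least, over 0.59. It stood at 7.27 with both agents, 6.97 with NRG-1, 7.24 with DMSO, 6.95 in the adult library, 6.68 in the neonatal library and 7.17 in iPS cells. No pair of neighbours in the order of its 6 values was further apart than the error estimate used here.

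That estimate comes from genes with 2 probe sets, as the SD of how far the pair's log2 differences lay apart, scaled down by the square root of 2 to a single probe set. Each probe set had to reach the median of all values in at least 1 of the compared libraries. The estimate was 0.553 to 0.601 for comparisons with iPS cells, 0.345 for adult minus neonatal and 0.197 to 0.305 among the 3 cultures. It includes real differences between transcripts of a gene and is no replicate error. Over the 9 genes, 28 of 45 pairs of neighbouring libraries were closer than it. For Il6 0 of its 5 neighbour steps were closer, for Osmr 1 (DMSO and the culture with both agents), and for Lifr 2 (the culture with both agents and NRG-1, and iPS cells and the neonatal library). The estimate does not cover steps between dim values, such as those of Il6 from both agents to NRG-1 and from NRG-1 to iPS cells.

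Osmr, the oncostatin M receptor chain, had the second widest span, 5.17, and was the one gene at least 2-fold above iPS cells in all 5 other libraries. It stood at 7.94 with DMSO and NRG-1, 7.10 with NRG-1, 7.98 with DMSO, 10.67 in the adult library, 9.93 in the neonatal library and 5.50 in iPS cells. The order of the libraries was that of Il6. The differences from iPS cells were 2.44, 1.61 and 2.48 in the cultures with both agents, NRG-1 and DMSO, 5.17 (36.0-fold, rank 21) in the adult library and 4.44 (21.7-fold, rank 43) in the neonatal library.

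Lifr, the receptor chain for LIF and cardiotrophin 1, spanned 3.69, with the adult library lowest. It stood at 10.63 with DMSO and NRG-1, 10.60 with NRG-1, 10.17 with DMSO, 6.95 in the adult library, 8.43 in the neonatal library and 8.70 in iPS cells. All cultures were above iPS cells, by 1.94, 1.91 and 1.48, the adult library was below them by 3.36-fold (-1.75), and the neonatal library was within the error estimate of them (-0.26). The difference between the Osmr and Lifr differences was 6.92 for adult minus iPS and 4.70 for neonatal minus iPS, but 0.50, -0.30 and 1.01 for the cultures with both agents, NRG-1 and DMSO.

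Il6st, which encodes the shared chain gp130, was bright in every library and spanned 1.24. Its values were 9.92 with both agents, 9.54 with NRG-1, 9.89 with DMSO, 10.30 in the adult library, 10.17 in the neonatal library and 9.07 in iPS cells. iPS cells were lowest, and the difference passed 2-fold in the adult (1.24) and neonatal (1.10) libraries but not in the cultures (0.85, 0.48 and 0.83 with both agents, NRG-1 and DMSO).

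Il6ra, the alpha receptor for IL-6, spanned 1.10, at 6.80 with both agents, 6.52 with NRG-1, 6.71 with DMSO, 6.40 in the adult library, 6.49 in the neonatal library and 5.71 in iPS cells. It was lowest in iPS cells, and the other 5 libraries lay between 6.40 and 6.80. The difference from iPS cells passed 2-fold with both agents (1.10) and, by the narrowest margin of any gene counted, with DMSO (1.00, or 2.004-fold). Under cyclic loess the DMSO difference was 0.96, short of 2-fold, and under the housekeeping shift described below the NRG-1 difference was 1.07, past it, against 0.81 as deposited.

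**Figure D2:**
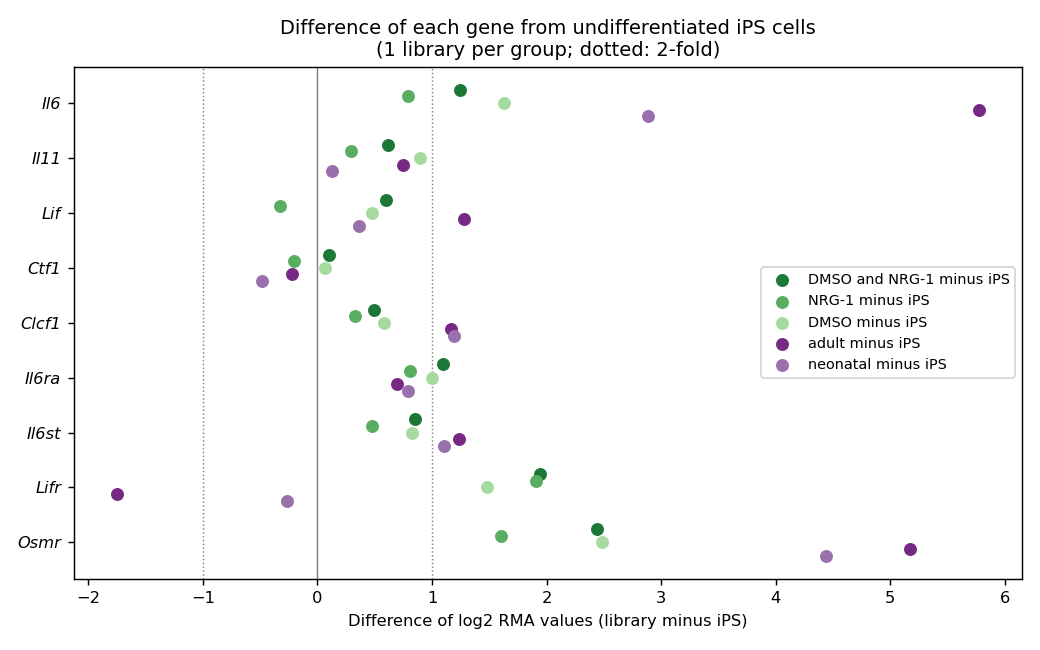
Difference of log2 RMA values from iPS cells (x axis) for each gene (y axis), with 1 point for each of the 5 other libraries and dotted lines at 2-fold. Osmr lay above 2-fold in all 5 libraries, Il6 reached 5.78 in the adult library, and Lifr was higher in the cultures and lower, at -1.75, in the adult library.

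Counted over the 9 genes, the culture with both agents had 3 genes at least 2-fold higher than iPS cells and 0 lower, where 13.0% of all 13696 genes that passed the filter were higher and 13.1% lower. NRG-1 alone had 2 higher and 0 lower, against 11.3% and 14.5% of all genes, and DMSO alone had 4 higher and 0 lower, against 13.1% and 13.3%. The adult library had 5 higher (Il6, Lif, Clcf1, Il6st and Osmr) and 1 lower (Lifr), against 13.1% and 14.1% of all genes. The neonatal library had 4 higher (Il6, Clcf1, Il6st and Osmr) and 0 lower, against 13.0% and 11.2%. The median differences of the 9 genes were 0.85, 0.48 and 0.90 in the cultures with both agents, NRG-1 and DMSO, 1.16 in the adult library and 0.79 in the neonatal library, while the medians of all genes lay just under 0, the lowest at -0.04. These comparisons share the iPS library. Dim genes entered the medians but not the counts, which left 8, 7, 9, 9 and 8 of the 9 genes to count in the same order.

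The adult and neonatal libraries differed in a pair of genes, Il6 and Lifr. Il6 was 7.42-fold higher in the adult library (9.63, against 6.74 in the neonatal library), a difference of 2.89 that ranked 14 from the top among 13164 genes. Lifr was 2.80-fold lower in the adult library (6.95, against 8.43), a difference of -1.49 that ranked 104 from the bottom. So 1 family gene was past 2-fold in each direction, as were 2.52% (higher) and 2.92% (lower) of all genes. Lif (0.91) and Osmr (0.73) were also higher in the adult library by more than the error estimate of 0.345, without reaching 2-fold, and so was Il11 (0.62). Ctf1 (0.27), Il6st (0.13), Clcf1 (-0.03) and Il6ra (-0.09) lay within it. Markers of macrophages, a known source of IL-6, moved the same way: of 10 markers, 5 were at least 2-fold higher and 0 lower in adult minus neonatal, with list means of 6.61 and 5.46, and the pan-macrophage marker Adgre1 was dim at 5.04 and 4.70. Over all 6 libraries they did not all follow Il6. Lyz2 and C1qb were highest in the adult library, but Cd68 (10.9 to 11.3, against 8.82 in the adult library) and Csf1r (8.04 to 8.21, against 6.25) were highest in the cultures. Fibroblast markers, with means of 10.6 and 10.2, had 2 of 11 higher. Their part in the Il6 and Lifr differences was not tested. The array table has no zero, so no marker is listed at 0.

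**Figure D3:**
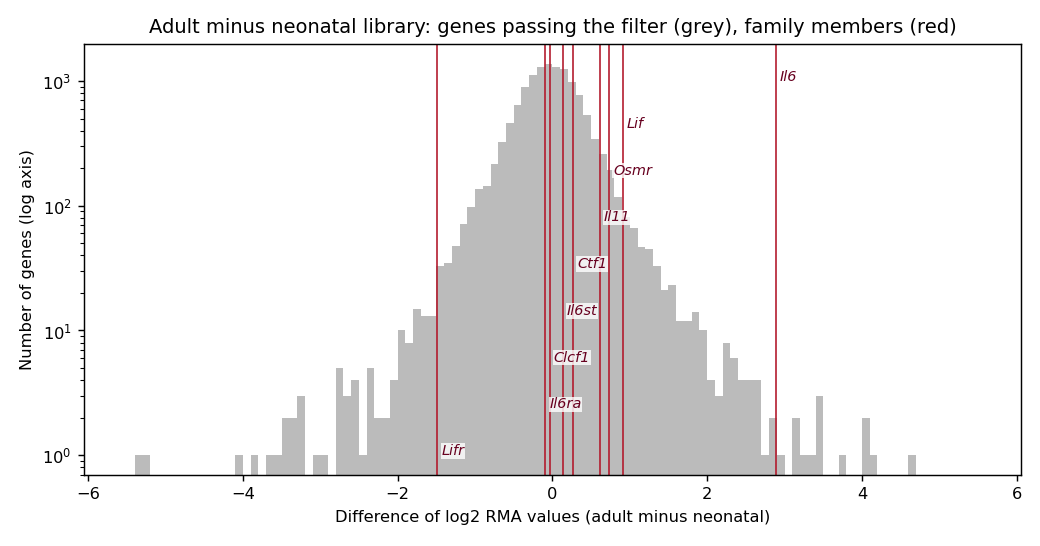
Histogram of the differences of log2 RMA values, adult minus neonatal, over the 13164 genes that passed the filter (grey; the count axis is logarithmic), with a red line at each of the 9 family genes. Il6 lies at 2.89 and Lifr at -1.49, in the tails, and the other 7 lie between -0.09 and 0.91.

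Among the 3 cultures no gene of the family was 2-fold apart. The cultures with NRG-1 alone and with DMSO alone differ in both agents, so adding NRG-1 and leaving out DMSO cannot be told apart. NRG-1 alone set against DMSO alone gave 8 of 9 negative differences, with 0 genes at least 2-fold higher and 0 lower, where 0.360% and 1.78% of all 13343 genes were. The largest were those of Osmr (7.10 with NRG-1, 7.98 with DMSO, a difference of -0.88), Il6 (4.65 and 5.48, -0.83), Lif (5.77 and 6.58, -0.81) and Il11 (4.94 and 5.55, -0.60), each more than the error estimate of 0.305. Lifr was the one gene higher with NRG-1 (10.60, against 10.17 with DMSO, a difference of 0.43). Il6ra (-0.19), Clcf1 (-0.26) and Ctf1 (-0.27) were within the estimate, and Il6st (-0.35) was just past it. A shift of the libraries to equal housekeeping medians moved the median of all genes by 0.23 here. It turned the sign of the Il6ra difference, to 0.04.

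With NRG-1 added to DMSO, compared with DMSO alone, the family changed little. There were 0 genes at least 2-fold higher or lower, against 0.0455% and 0.0530% of all 13198 genes. Lifr (10.63, against 10.17; 0.46) and Il6 (5.10, against 5.48; -0.39) differed most, both by more than the error estimate of 0.197, and the Lifr difference ranked 240 from the top. Il11 differed by -0.28, and the other 6 genes by -0.09 to 0.12, within the estimate. Lifr was thus higher in both cultures with NRG-1 than in the culture with DMSO alone, and these comparisons share that DMSO library.

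With both agents compared with NRG-1 alone, all 9 differences were positive, and 0 reached 2-fold, where 1.08% of all 13303 genes did so upward and 0.293% downward. Lif (6.70, against 5.77; 0.93) and Osmr (7.94, against 7.10; 0.84) differed most, at ranks 180 and 263 from the top. Lifr differed least (0.03). Il6, dim in both, differed by 0.45, and Il6st by 0.38. The housekeeping shift moved the median of all genes by -0.19 here. It turned the signs of Lifr (0.03 as deposited, -0.16 shifted) and Clcf1 (0.17 as deposited, -0.02 shifted).

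Marker means of several cell types differed between the cultures, as Il6 and Osmr did, but not always in the same order. The mean of the 11 fibroblast markers was 8.02 with both agents, 7.66 with NRG-1 and 8.13 with DMSO, against 6.40 in iPS cells. Its order over the 6 libraries was that of both Osmr and Il6. The mean of 7 epithelial markers was, like Lifr, highest in the cultures, followed by iPS cells, the neonatal library and the adult library. It was 10.48, 10.63 and 10.59 in the same cultures, 5.63 in the adult library, 6.73 in the neonatal library and 7.51 in iPS cells. Among the cultures it was lowest with both agents, where Lifr was highest. Single markers did not all follow the mean. Epcam, Cdh1 and Cldn6 were lower than in iPS cells in both heart-derived libraries, but Krt18 (2.19) and Krt19 (1.52) were higher in the neonatal library. In the adult library Krt18 (-0.02), Krt19 (0.36) and Krt7 (0.46) were under 2-fold. Visceral endoderm markers had means between 8.53 (DMSO) and 8.997 (NRG-1) in the cultures, 5.72 and 5.48 in the adult and neonatal libraries, and 5.90 in iPS cells. For NRG-1 against DMSO, mesothelial and epicardial markers had means of 6.32 and 6.98 over 5 genes, 2 of them at least 2-fold lower (Msln, -2.01, and Upk3b, -1.10), and cardiomyocyte markers had means of 6.49 and 6.87 over 12 genes, 2 of them lower (Actn2, -1.24, and Myh6, -1.11). Other cardiomyocyte markers were higher with NRG-1 by less than 2-fold: Myh7 (6.81, against 6.36), Myl7 (6.71, against 6.33), Ryr2 (7.43, against 7.17) and Mb (5.64, against 5.49). The part of these cells in the differences was not tested.

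The genes most like Il6, Osmr and Lifr in pattern were found by the root mean square difference of log2 values, each gene centred on its own mean over the 6 libraries. For Osmr they were the desaturase family gene Fads3 (0.22) and the fibrillar collagen genes Col3a1 (0.23) and Col5a2 (0.32). Col3a1, for instance, stood at 8.65 with both agents, 8.44 with NRG-1, 8.93 with DMSO, 11.5 in the adult library, 11.2 in the neonatal library and 6.67 in iPS cells. For Il6 they were the leukocyte receptor gene Lilrb4a (0.38), the chemokine Ccl9 (0.43) and the laminin chain Lama4 (0.47). For Lifr they were the tight junction gene F11r (0.24), the metal transporter Slc39a8 (0.24) and the ephrin Efna1 (0.25). Likeness over 6 libraries is given as a description.

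**Figure D4:**
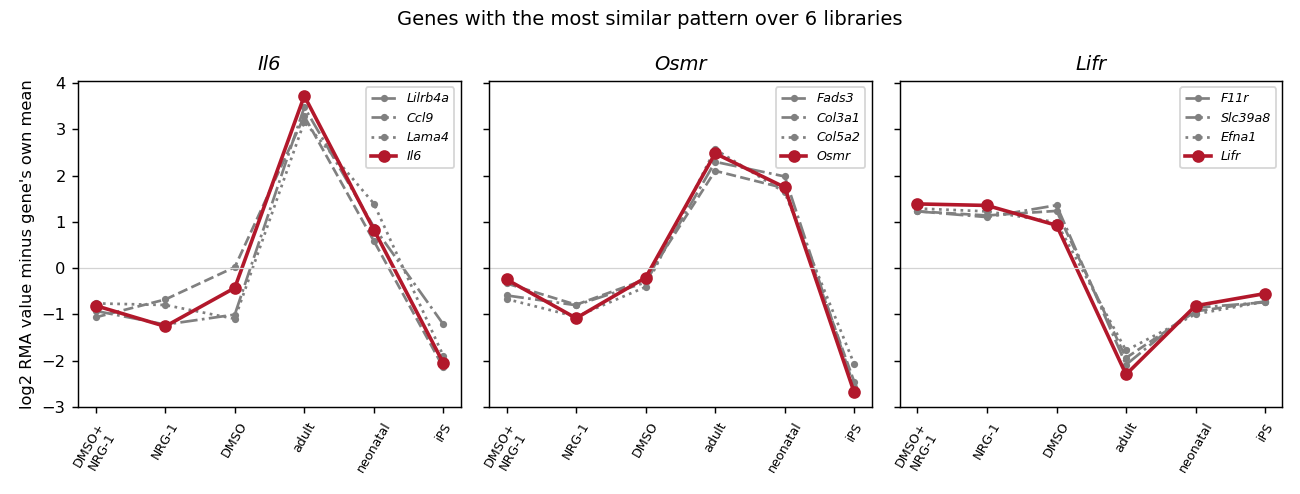
Log2 RMA value minus the gene's own mean (y axis) over the 6 libraries (x axis) for Il6, Osmr and Lifr (red) and the 3 genes nearest to each (grey). Il6 peaked in the adult library alone, Osmr was high in both heart-derived libraries, and Lifr was high in the 3 cultures.

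Other ligands and receptors of the family were mostly dim. Of 11 listed genes 8 were measured, and Osm, Ctf2, Ebi3, Il31 and Il31ra stayed under the median of the table in all 6 libraries. Osm, the ligand of the Osmr chain, stood at 4.89 with both agents, 4.93 with NRG-1, 4.68 with DMSO, 4.86 in the adult library, 4.63 in the neonatal library and 4.73 in iPS cells. Cntfr, the CNTF receptor used by Clcf1, was highest in iPS cells at 8.01, and stood at 6.06, 6.12 and 6.18 in the cultures with both agents, NRG-1 and DMSO, 6.22 in the adult library and 6.47 in the neonatal library. Each of the 5 was at least 2-fold lower. Il27ra, a gp130 partner for IL-27, was 1.24 higher in the adult library than in iPS cells (7.46, against 6.22), with 6.94 in the neonatal library and 5.92 to 6.07 in the cultures. Il27 stayed between 5.87 and 6.50.

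JAK-STAT genes downstream of the receptors had list medians of 0.32 to 0.40 against iPS cells in the 5 libraries. Of 11 measured genes 1 to 3 were at least 2-fold higher and 1 or 2 lower. Of all genes, 11.3% to 13.1% were higher and 11.2% to 14.5% lower in these comparisons, and with 11 genes the counts are a description. Jak2, a kinase bound to gp130, was higher in every library, by 2.57, 2.36 and 2.70 in the cultures with both agents, NRG-1 and DMSO, 1.74 in the adult library and 1.56 in the neonatal library. Jak1 was 1.46 higher in the adult library and 1.20 in the neonatal library. Stat3 stood at 10.6, 10.2 and 10.5 in the cultures with both agents, NRG-1 and DMSO, at 10.3 and 9.86 in the adult and neonatal libraries, and at 9.47 in iPS cells, past 2-fold with both agents (1.15) and with DMSO (1.01). Gab1, an adaptor for the phosphatase Ptpn11, was lower in every library, with differences of -2.81 to -1.21. Ptpn11 itself reached 2-fold only in the adult library (1.10).

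Feedback inhibitors went both ways, with list medians between -0.10 and 0.17 over 10 genes. Socs3, which binds gp130 and is induced by STAT3, was highest in iPS cells at 7.30. It stood at 6.82, 6.48 and 6.94 with both agents, NRG-1 and DMSO, and was lower by more than 2-fold in the adult (5.96, a difference of -1.34) and neonatal (5.74, -1.57) libraries. Socs2 was lower in the cultures (-2.60, -2.74 and -2.25 with both agents, NRG-1 and DMSO), and differed by 0.58 in the adult and -0.57 in the neonatal library. Socs5 was higher in all 5 libraries, by 1.65 to 3.21.

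Of 13 STAT3 response genes, 7 were at least 2-fold higher in the adult library than in iPS cells and 2 lower (Pim1 and Icam1), with a median of 1.34, where 13.1% of all genes were higher and 14.1% lower. In the neonatal library 4 were higher and 2 lower (median 0.39), and in the cultures with both agents, NRG-1 and DMSO 1, 1 and 2 were higher and 3, 3 and 3 lower (medians 0.32, 0.07 and 0.32). Of all genes, 11.3% to 13.1% were higher in the 3 cultures and the neonatal library, and 11.2% to 14.5% lower. Timp1, an inhibitor of matrix proteases, was 3.10 higher in the adult and 2.15 in the neonatal library, and Cebpd, a transcription factor of the acute phase response, was 1.34 higher in the adult library. Pim1, a survival kinase, was lower with both agents, NRG-1 and DMSO (-1.83, -2.01 and -1.86) and in the adult library (-1.20). Against the neonatal library, 1 of the 13 genes was at least 2-fold higher in the adult one (Fos, 1.58), where 2.52% of all genes were.

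Acute phase proteins are made by liver under IL-6. Of 16 measured genes 3, 4 and 4 were at least 2-fold higher with both agents, NRG-1 and DMSO and 0 lower, with medians of 0.59, 0.43 and 0.72, where 13.0%, 11.3% and 13.1% of all genes were higher. In these comparisons 8, 7 and 8 of the 16 passed the filter. The fibrinogen gene Fga was below the median of all values in all 6 libraries. Of the other fibrinogen genes, Fgb differed by 5.31, 6.35 and 5.64 and Fgg by 3.94, 4.48 and 4.16, and both are also made by yolk sac endoderm. Neither reached the median of the table in the heart-derived libraries. There, 3 genes were higher and 1 lower in the adult library and 2 and 1 in the neonatal library, led by ceruloplasmin (Cp) in the adult library (9.32, against 6.36 in the neonatal library and 4.71 in iPS cells). Of all genes, 13.1% were higher and 14.1% lower in the adult library, and 13.0% and 11.2% in the neonatal library. Of 3 listed proteases, Adam10, which sheds membrane receptors including Il6ra, was higher than in iPS cells by 2.35, 2.19 and 2.22 in the cultures and by 1.85 and 1.74 in the adult and neonatal libraries, and Adam17, which does so too, differed by 0.18 to 0.28. The third, Adamts1, differed most. It stood at 8.80, 8.37 and 8.98 with both agents, NRG-1 and DMSO, 8.56 and 8.20 in the adult and neonatal libraries, and 5.39 in iPS cells.

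Genes of inflammatory signalling were often higher than in iPS cells. The list holds ligands, receptors and NF-kappaB subunits. It also holds Nfkbia, Ptgs2, Cxcl1 and Ccl2, so not every gene counted is an inducer of Il6. With both agents, NRG-1 and DMSO, 7, 7 and 6 of 15 measured genes were at least 2-fold higher. In the adult library 8 were higher and in the neonatal library 6, and 1 was lower in each of the 5 libraries (Tlr2). Of all genes, 11.3% to 13.1% were higher and 11.2% to 14.5% lower in these comparisons. The IL-1 receptor gene Il1r1 was 4.13 higher in the adult and 4.62 in the neonatal library, and the TNF receptor gene Tnfrsf1a 3.08 and 2.66. The ligand genes Il1a and Il1b were dim in all 6 libraries, and Tnf lay between 4.70 and 5.58. Adult minus neonatal, 2 genes of the list passed 2-fold, the chemokines Ccl2 (9.27, against 7.42) and Cxcl1 (7.98, against 6.16), beside the Il6 difference of 2.89. Ptgs2, the inducible cyclooxygenase, was lower with NRG-1 than with DMSO (9.70, against 11.4, a difference of -1.68), beside the Il6 difference of -0.83, and stood at 11.1 with both agents.

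Pluripotency genes of LIF-dependent cells were mostly lower than in iPS cells in all 5 libraries. With both agents, NRG-1 and DMSO 8 of 10 were at least 2-fold lower in each culture and 1 higher, and in the adult and neonatal libraries 8 and 9 were lower and 0 higher. Of all genes, 11.2% to 14.5% were lower and 11.3% to 13.1% higher in these comparisons. Tfcp2l1, a factor that LIF and STAT3 induce in mouse stem cells, differed by -2.34, -2.43 and -2.56 in the cultures and by -3.90 and -3.85 in the adult and neonatal libraries. The gene higher in the cultures was Klf4, another such factor, by 1.77, 2.18 and 1.46, with differences of -0.78 and -0.95, under 2-fold, in the adult and neonatal libraries. Klf5 differed by 0.52, 0.74 and 0.57 in the cultures and by -3.62 and -3.14 in the adult and neonatal libraries. Klf4, Klf5 and Lifr thus each had their highest values in the 3 cultures.

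**Figure D5:**
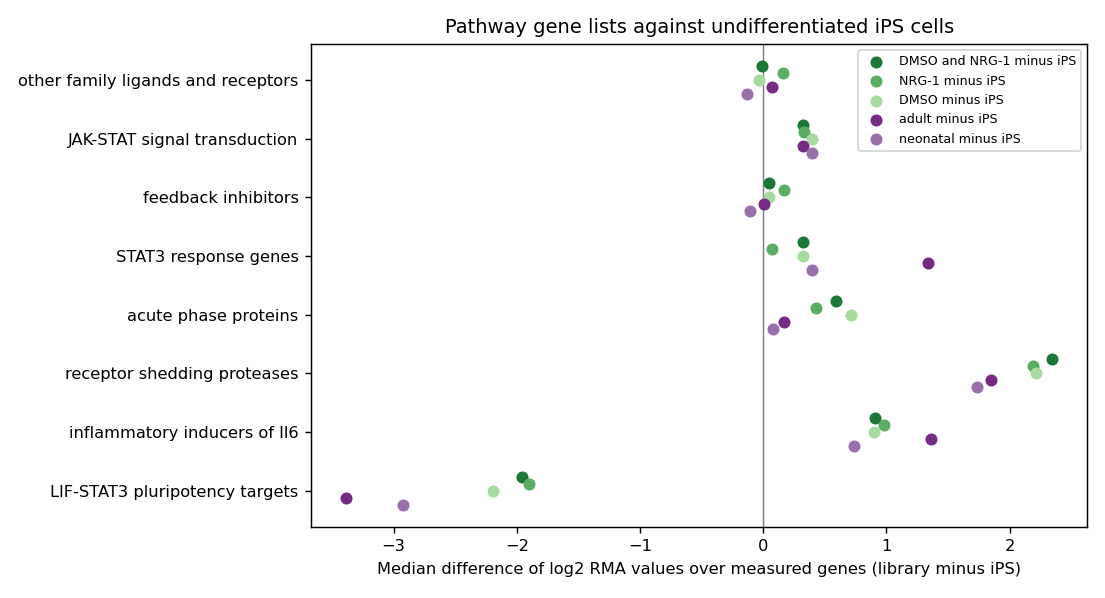
Median difference of log2 RMA values from iPS cells (x axis) over the measured genes of 8 pathway lists (y axis), with 1 point for each of the 5 other libraries. STAT3 response genes had their highest median, 1.34, in the adult library, and pluripotency genes had medians between -3.38 and -1.90.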

How the data were processed

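The deposited table holds log2 values of 41345 probe sets. The authors used RMA to make them, per the submitters' processing notes, from 300 ng of total RNA per sample, per the labels' protocols. RMA corrects background, equalises the arrays' distributions and summarises probes. Sorted values of the 6 arrays lay within 0.285 of each other, so that a shift of most genes together would be removed. Detection values are not part of it, and having 6 arrays limits precision. RMA's version and the genome build are not stated in the sources used here.

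Genes were named from 23521 probe sets with 1 symbol in the platform annotation (1814 had several, 16010 are unnamed here), as the mean over probe sets. Entrez identifiers of 23328 of them matched RefSeq (GRCm38.p6) and changed 0 symbols. The 9 comparisons are differences of log2 values with 1 library per group, without tests. A gene was counted when at least 2-fold apart with the higher value at or above the median, 5.20. The members, 9 gene lists, 11 marker lists and motifs were chosen with earlier results of these data known. The text names all members, all measured genes of the first list and the 3 genes most alike for members spanning at least 2. From the other lists it names examples, picked with their values in view, which are not always the largest differences. The alternatives tried were no filter, a filter at the 75th percentile (6.93), the brightest probe set, cyclic loess (limma 3.58.1, R 4.3.3) and a shift to equal medians of 10 housekeeping genes. Python 3.11.15 and pandas 2.3.3 were used, and the counting step was tested on simulated data.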

Additional observations from a re-analysis of the deposited data

How the results depend on the processing

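Of the 9 counts of family genes at least 2-fold apart, 2 differed by more than 1.5 times under any of the 5 alternatives, both with the filter at the 75th percentile (6.93): for DMSO minus iPS the count was 2, and for neonatal minus iPS it was also 2, each against 4, because fewer genes were counted. With no filter, the brightest probe set, cyclic loess and the housekeeping shift the counts stayed within 1.5 times, but single calls of Il6ra changed: for DMSO minus iPS it was lost under cyclic loess (3 genes in place of 4), and for NRG-1 minus iPS it was gained under the housekeeping shift (3 in place of 2). With no filter, Il6 was also counted for both agents minus iPS (4 in place of 3). Each member has 1 probe set, so that choice cannot move it. Among 81 differences of single members, 0 changed sign under cyclic loess and 4 under the housekeeping shift, all under 2-fold: Ctf1 for NRG-1 minus iPS (-0.20, then 0.06), Il6ra for NRG-1 minus DMSO, and Clcf1 and Lifr for both agents minus NRG-1. No difference moved by 1.5-fold or more. The shift moved the median of all genes by -0.19 to 0.26, and it rests on 10 genes whose own differences ran, for adult minus iPS, from -0.89 to 3.41, so another choice of housekeeping genes could give a larger shift and other 2-fold calls. No paired analysis was possible because each group has 1 library. Differences between dim values are limited by signal that cannot be set against background here.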
